A study of Mus musculus with 6 samples.

Results

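The genes described here are the semaphorins, the plexins and the neuropilins, 31 genes of the 33276 in the count table. They were chosen by symbol alone, as every gene named as a semaphorin or a plexin, plus Nrp1 and Nrp2. There are 20 semaphorins, 9 plexins and 2 neuropilins, and all 31 had enough reads to be tested. The cells were fibroadipogenic progenitors (FAPs), mesenchymal cells of the muscle interstitium, profiled by RNA-seq. The groups were 3 libraries of circulating FAPs, taken from peripheral blood, and 3 libraries of muscle FAPs. All 6 libraries came from mice with middle cerebral artery occlusion (MCAO), a model of ischaemic stroke. The count table held no library of mice without MCAO. The labels enter MCAO as the strain and give no background strain, age, sex, sorting markers or number of mice per library, nor which muscle was used.

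Semaphorins are guidance proteins, known first for steering growing axons and also for acting on blood vessels, immune cells and bone. They are grouped into classes. Class 3 is secreted, classes 4, 5 and 6 span the membrane, and class 7 is held by a lipid anchor. Plexins are their main receptors and pass the signal on through a cytoplasmic domain that acts on small GTPases and so on the cytoskeleton and on adhesion. Most class 3 semaphorins bind plexins together with a neuropilin, whereas Sema3e can bind Plxnd1 directly. Neuropilins also serve as co-receptors for vascular endothelial growth factor (VEGF). In muscle, Sema3a from satellite cells is known to act on the motor nerve ending.

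The makeup of the semaphorin transcripts differed between the libraries of the groups, which was not tested. Sema3c was the most abundant member in every library and made up 72.1% ± 4.55 of semaphorin transcripts in circulating FAPs and 42.8% ± 8.25 in muscle FAPs (SD, n = 3 each). The membrane-bound Sema4a and Sema6b and the secreted Sema3f were near the background of silent genes in circulating FAPs and above it in muscle FAPs. Nrp1, the more abundant neuropilin, averaged 46.3 ± 34.9 CPM (counts scaled to a library of 1000000 reads) in circulating FAPs and 129 ± 17.8 CPM in muscle FAPs. In edgeR's quasi-likelihood test none of the 31 members passed an adjusted p of 0.05, where 0.109% of all 20248 genes tested did (0.104% lower and 0.00494% higher in circulating FAPs). At an unadjusted p under 0.05 there were 5 members lower in circulating FAPs (16.1%, against 9.64% of all genes tested) and 2 higher (6.45%, against 9.71%). DESeq2 called 4 members lower and none higher at an adjusted p under 0.05, where it called 9.86% of the genes it gave an adjusted p.

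RefSeq promoter windows are shown for 4 of the members with an unadjusted p under 0.05, so that their start regions can be compared: Sema3c and Sema3e, with higher levels in circulating FAPs, and Sema4a and Sema6b, with much lower ones. Each is the 250 bases before an annotated transcript start, 5′ to 3′ on the gene's strand, in build GRCm38.p6. That build is not the one the reads were mapped to. Capitals mark a GC box, GGGCGG on either strand.
Sema3c, chr5:17574566-17574815, plus strand: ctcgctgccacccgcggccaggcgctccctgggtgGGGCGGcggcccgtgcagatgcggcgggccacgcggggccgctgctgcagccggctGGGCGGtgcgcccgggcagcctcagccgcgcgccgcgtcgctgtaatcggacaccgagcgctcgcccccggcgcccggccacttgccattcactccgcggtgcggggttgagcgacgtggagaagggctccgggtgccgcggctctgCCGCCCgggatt
Sema3e, chr5:14025026-14025275, plus strand: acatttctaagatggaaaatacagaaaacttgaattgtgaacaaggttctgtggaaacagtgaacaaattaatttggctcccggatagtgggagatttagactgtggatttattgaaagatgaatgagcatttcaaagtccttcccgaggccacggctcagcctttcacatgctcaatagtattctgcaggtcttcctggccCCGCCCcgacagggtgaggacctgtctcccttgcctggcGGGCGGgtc
Sema4a, chr3:88459102-88459351, minus strand: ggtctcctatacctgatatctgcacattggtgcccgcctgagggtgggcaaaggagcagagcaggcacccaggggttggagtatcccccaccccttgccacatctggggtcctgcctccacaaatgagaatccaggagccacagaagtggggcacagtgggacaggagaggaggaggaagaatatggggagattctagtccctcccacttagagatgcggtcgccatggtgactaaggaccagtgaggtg
Sema6b, chr17:56140344-56140593, minus strand: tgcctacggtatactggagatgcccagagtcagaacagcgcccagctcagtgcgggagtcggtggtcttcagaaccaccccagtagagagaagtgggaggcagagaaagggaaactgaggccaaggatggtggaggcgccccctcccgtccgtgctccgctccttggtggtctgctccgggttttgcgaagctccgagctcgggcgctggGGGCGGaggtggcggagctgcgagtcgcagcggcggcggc
The Sema3c window is 78.4% G and C, with 39 CpG and 3 GC boxes, that of Sema6b 66.0% with 20 CpG and 1 GC box, that of Sema3e 48.0% with 7 CpG and 2 GC boxes, and that of Sema4a 58.0% with 3 CpG and no GC box. These 4 windows thus do not share a base composition along the direction of difference, which rests on few genes. The windows of Nrp1 and Plxnd1, also lower in circulating FAPs, are not printed. They are 64.4% G and C with 11 CpG and 64.8% with 16 CpG, near that of Sema6b. Sema4a has 4 annotated windows and Sema6b has 2, and the counts do not show which start was used.

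A GC box lay in 27 of the 37 windows of 26 members (73.0%), against 32.7% of all 32851 windows of the table. Members' windows were also richer in G and C (median over genes 65.0%, against 52.4% over all windows) and in CpG (median 16.5 against 6), and the share with a GC box among windows of like composition was not computed. The TATA box letters TATAAA lay in 0 of the 37, against 12.4% of all windows, and the AP-1 letters TGANTCA in 3, against 6.75%. Both strands were searched, the shares count windows rather than matches, and some windows belong to the same gene. These are letter matches in the 250 bases before a start, not shown binding sites.

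The libraries held 5522193 to 13813329 counts in circulating and 17532558 to 23424039 in muscle FAPs, so a member at 1 CPM rests on few reads, fewest in circulating replicate 2. Nothing in the labels ties the libraries of a group to different animals; the p-values therefore rest on the spread among these libraries alone, which may be technical. Small-subunit ribosomal RNA took 43.0% to 60.1% of counts in circulating and 27.8% to 32.3% in muscle libraries. Vomeronasal, taste and trace amine receptor genes were taken as silent in these cells, which was not tested. They gave a background of 0.408 to 0.473 CPM per kilobase of exon in circulating and 0.211 to 0.261 in muscle libraries. The 8 FAP markers, Pdgfra among them, were detected in every library, with summed levels of 9407 to 14900 CPM in the circulating and 23910 to 30230 CPM in the muscle group. Dcn and Col3a1 made up most of these sums. In edgeR 6 of the 8 were lower in circulating FAPs at an unadjusted p under 0.05 (all genes 9.64%), while Ly6a and Cd34 overlapped between the groups. The 8 pan-leukocyte markers summed to 29.2 to 124 CPM in the circulating and 9.78 to 15.5 CPM in the muscle group, and the 10 monocyte or macrophage markers to 53.9 to 136 and 16.4 to 31.9 CPM. None of these 2 lists' genes was at 0 in any library. Laptm5, a pan-leukocyte marker, alone gave 107, 29.3 and 7.80 CPM in circulating replicates 1, 2 and 3 and 0.609 to 1.03 CPM in muscle libraries. Ptprc, another of them, was at 8.975 to 13.5 CPM in circulating and 4.645 to 7.89 CPM in muscle libraries (edgeR unadjusted p = 0.186). Marker levels were not set over the background, which was itself higher in circulating libraries. The 9 endothelial markers summed to 69.9 to 110 CPM in the circulating and 80.0 to 108 CPM in the muscle group. Of these 9, 1 was at 0 in circulating replicate 1 and 1 in muscle replicate 1. The neutrophil markers summed to 12.9 to 118 CPM in the circulating and 4.72 to 11.1 CPM in the muscle group, and the Schwann or neural markers to 10.3 to 20.4 and 12.0 to 44.5 CPM. The pericyte or smooth muscle list summed to 43.9 to 53.0 CPM in circulating and 55.3 to 138 CPM in muscle libraries. Sums of the T or NK cell, platelet, red cell and muscle cell lists overlapped between the groups. Leukocytes and endothelial cells express several of the members, and the part of other cells in the values below was not tested. In bulk RNA, fewer cells of a type and less RNA per cell cannot be told apart.

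**Figure D1:**
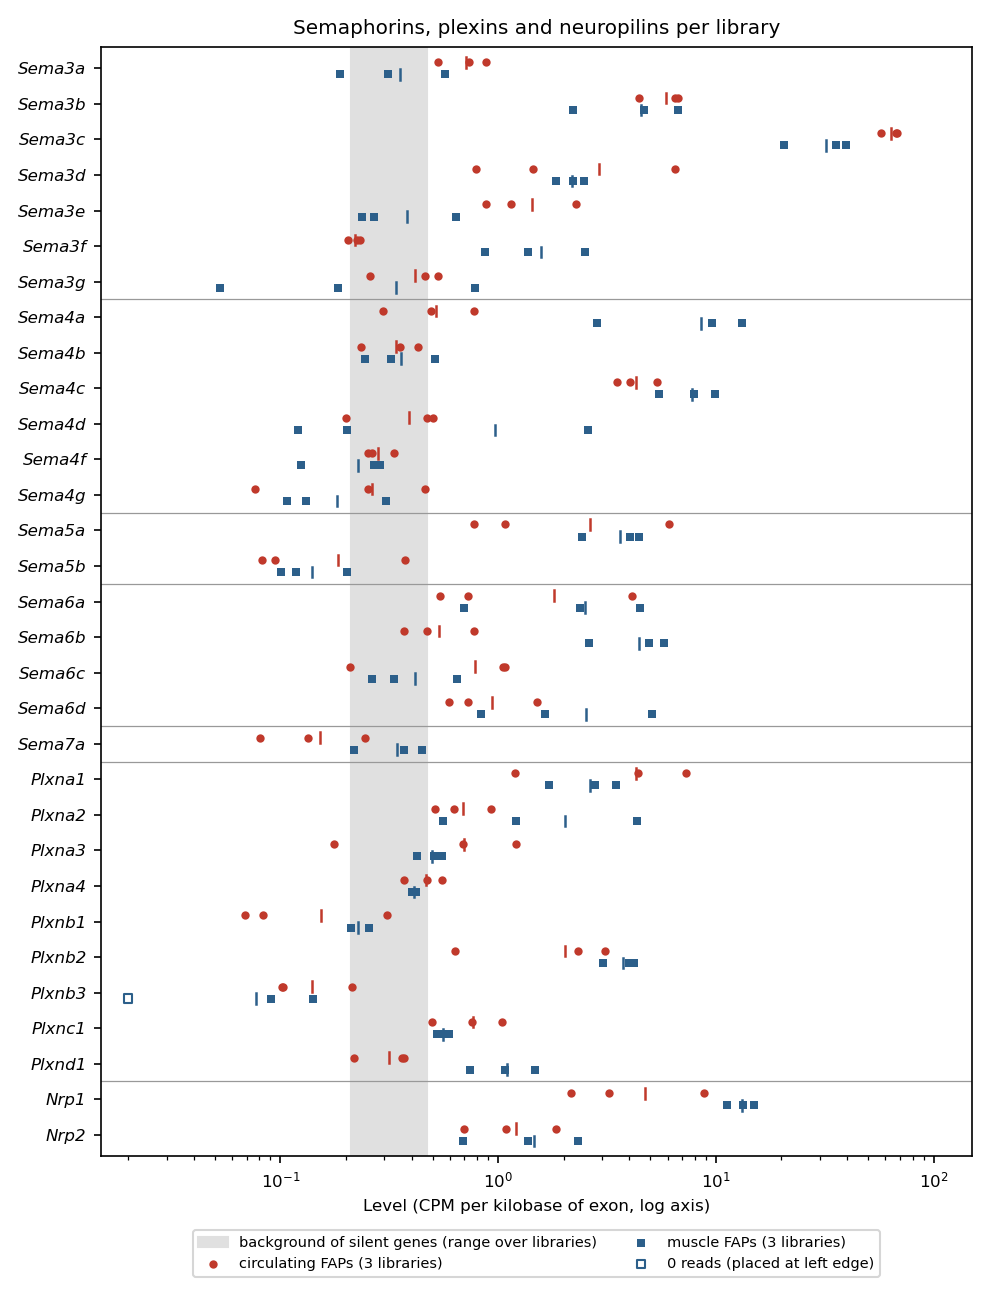
Level of each of the 31 members in CPM per kilobase of exon on a log axis, with 1 point per library, circulating FAPs (red circles) above muscle FAPs (blue squares), and a tick at each group's mean. The grey band spans the background of silent genes over the 6 libraries. Sema3c stands far above the rest in every library, while Sema3f, Plxnd1, Sema4a and Sema6b lie in or near the band in circulating FAPs, with means of 0.221, 0.317, 0.520 and 0.537.

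Sema3c, a secreted ligand of neuropilin and plexin complexes that is needed for the developing heart outflow tract, was at 484, 410 and 477 CPM in circulating replicates 1, 2 and 3. In muscle replicates 1, 2 and 3 it was at 283, 146 and 255 CPM. Every circulating library lay above every muscle library. A log2 fold change (circulating minus muscle) of 1.004 ± 0.35 (SE) did not pass in edgeR (unadjusted p = 0.0170, adjusted p = 0.197), nor in DESeq2 (adjusted p = 0.313). Per kilobase of exon its level averaged 64.0 ± 5.70 CPM in the circulating and 31.9 ± 10.1 CPM in the muscle group. Set over each library's background of silent genes the groups overlapped, at 143, 122 and 164 times the background in circulating and 153, 78.5 and 169 times in muscle replicates 1, 2 and 3.

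Sema3e, the ligand that can signal through Plxnd1 without a neuropilin, was at 21.2, 10.6 and 8.13 CPM in circulating replicates 1, 2 and 3 and at 5.97, 2.49 and 2.20 CPM in muscle replicates 1, 2 and 3. The groups did not overlap, and circulating replicate 1 was the highest. Its log2 fold change was 1.91 ± 0.72 (edgeR unadjusted p = 0.0232, adjusted p = 0.210). It stood at 2.15 to 4.83 times the background in circulating and 1.03 to 2.48 times in muscle libraries, so here too the groups overlapped on that scale.

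Sema3f, a repellent ligand that prefers Nrp2, went the other way. It was at 1.17, 1.06 and 1.21 CPM in circulating replicates 1, 2 and 3, which is 16, 8 and 11 reads. In muscle replicates 1, 2 and 3 it was at 13.0, 7.16 and 4.498 CPM. The circulating libraries sat close together and below every muscle library, at 0.433 to 0.570 times the background, while muscle libraries were at 4.09 to 9.62 times. The log2 fold change of -2.83 ± 0.64 did not pass in edgeR (unadjusted p = 0.00120, adjusted p = 0.125) and passed in DESeq2 (adjusted p = 0.000587).

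The other class 3 ligands overlapped between the groups. Sema3b, a ligand known as a tumour suppressor, was the second most abundant ligand per kilobase in circulating FAPs, at 32.1, 31.1 and 21.2 CPM in circulating and 22.4, 31.9 and 10.6 CPM in muscle replicates 1, 2 and 3 (log2 fold change 0.38 ± 0.63, edgeR unadjusted p = 0.561, adjusted p = 0.743). Sema3a, the classical axon repellent, was at 10.1, 12.2 and 7.36 CPM in circulating and 7.89, 4.32 and 2.59 CPM in muscle replicates 1, 2 and 3 (log2 fold change 1.007 ± 0.65, edgeR adjusted p = 0.396). Only muscle replicate 1 reached into the circulating range. Sema3d stood at 56.0 CPM in circulating replicate 1, against 12.4 and 6.81 CPM in circulating replicates 2 and 3 and 15.9 to 21.3 CPM in muscle libraries, so its log2 fold change of 0.43 became -1.03 without circulating replicate 1. Sema3g, known from arterial endothelium, was at 1.17 to 2.40 CPM in circulating and 0.239 to 3.55 CPM in muscle libraries.

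Sema4a, a membrane ligand of B-type plexins and Plxnd1 that is also a costimulator of T cells, had the largest difference of the 31 members. It was at 1.61, 2.66 and 4.17 CPM in circulating replicates 1, 2 and 3, from 22, 20 and 38 reads, and at 15.3, 52.0 and 71.3 CPM in muscle replicates 1, 2 and 3. Every circulating library lay below every muscle library, and the muscle libraries differed widely among themselves. This gave a log2 fold change of -4.04 ± 0.82 (edgeR unadjusted p = 0.000529, adjusted p = 0.0909). It passed in DESeq2 (adjusted p = 1.86e-06) and in edgeR without the filter on low counts (adjusted p = 0.0321). Over background it stood at 0.628 to 1.89 times in circulating and 10.9 to 62.4 times in muscle libraries. Dendritic cells and other leukocytes also express Sema4a. The pan-leukocyte markers summed to 29.2 to 124 CPM in circulating and 9.78 to 15.5 CPM in muscle libraries. Laptm5 alone gave 107 CPM of the highest sum. The part of leukocytes in the Sema4a values was not tested.

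Sema4c, a ligand of Plxnb2, was the other class 4 member without overlap, at 16.2, 24.8 and 18.4 CPM in circulating and 45.6, 36.3 and 25.1 CPM in muscle replicates 1, 2 and 3. Its highest circulating library and its lowest muscle library nearly met. The log2 fold change was -0.85 ± 0.58 (edgeR adjusted p = 0.419), and -0.11 with scaling on abundant genes, which takes the library factors from genes of at least 20 CPM. Sema4c and Sema4a together made up most of the class 4 transcripts in every library, with Sema4c at 70.5% ± 2.20 in circulating and 46.4% ± 24.2 in muscle FAPs and Sema4a at 8.56% ± 3.93 and 44.7% ± 23.3.

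Sema4d (CD100), which binds Plxnb1 and, on B cells, Cd72, was carried by 1 library. It was at 1.53, 3.86 and 3.62 CPM in circulating replicates 1, 2 and 3 and at 1.55, 19.9 and 0.928 CPM in muscle replicates 1, 2 and 3. Its log2 fold change of -1.32 ± 1.05 became 1.204 without muscle replicate 2. Cd72, named here after its values were seen, was high in the same library, at 19.4 CPM in muscle replicate 2 against 0.478 and 0.244 CPM in muscle replicates 1 and 3 and 0.219 to 3.46 CPM in circulating libraries. Sema4b, Sema4f and Sema4g stayed between 0.657 and 3.99 CPM in all 6 libraries and overlapped between the groups.

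Sema6b, a transmembrane ligand of A-type plexins, was the most different member of class 6. It was at 1.46, 1.86 and 3.07 CPM in circulating replicates 1, 2 and 3, from 20, 14 and 28 reads, and at 22.9, 10.4 and 19.6 CPM in muscle replicates 1, 2 and 3. The groups were far apart. The log2 fold change of -3.05 ± 0.71 did not pass in edgeR (unadjusted p = 0.00139, adjusted p = 0.127) and passed in DESeq2 (adjusted p = 4.49e-05). Within class 6 it held 14.8% ± 4.52 of transcripts in circulating FAPs and 45.9% ± 6.05 in muscle FAPs, a share that does not depend on the scaling between libraries.

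Sema6a, Sema6c and Sema6d, also ligands of A-type plexins, overlapped between the groups. Sema6a was at 4.74, 6.39 and 36.2 CPM in circulating and 39.2, 6.09 and 20.9 CPM in muscle replicates 1, 2 and 3, so each group held both high and low libraries. Sema6d reached 53.8 CPM in muscle replicate 3 and was at 6.26 to 15.8 CPM in circulating libraries and 8.78 and 17.3 CPM in muscle replicates 1 and 2. Sema6c was at 1.24 to 6.37 CPM in circulating and 1.56 to 3.82 CPM in muscle libraries.

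Sema5a, whose extracellular part carries thrombospondin repeats and which binds Plxnb3, was at 19.99, 113 and 14.49 CPM in circulating replicates 1, 2 and 3 and at 75.1, 45.4 and 82.5 CPM in muscle replicates 1, 2 and 3. Circulating replicate 2 was the highest of all 6 libraries. A log2 fold change of -0.46 ± 0.76 became -2.07 without circulating replicate 2. Sema5b was at 0.584 to 2.64 CPM in circulating and 0.711 to 1.43 CPM in muscle libraries. Sema7a, the lipid-anchored ligand of Plxnc1 and of beta-1 integrins, had 83 reads in all, at 0.266 to 0.803 CPM in circulating and 0.717 to 1.47 CPM in muscle libraries.

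**Figure D2:**
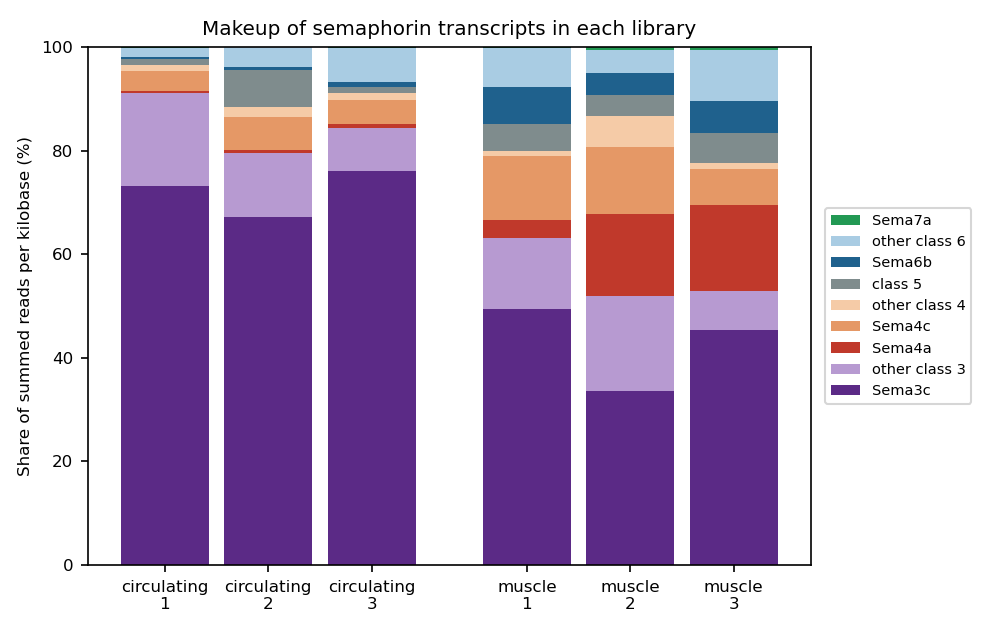
Share of each semaphorin or group of semaphorins in the summed reads per kilobase of exon of the 20 semaphorins, in percent, with 1 bar for each circulating (left) and muscle (right) library. Sema3c takes 67.1% to 76.0% of each circulating bar and 33.5% to 49.4% of each muscle bar, and Sema4a and Sema6b take up more of the muscle bars.

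Shares within a library do not depend on the scaling between libraries. Sema3c held 73.1%, 67.1% and 76.0% of semaphorin transcripts per kilobase in circulating replicates 1, 2 and 3 and 49.4%, 33.5% and 45.3% in muscle replicates 1, 2 and 3. Sema4a held 0.320% to 0.878% in circulating and 3.53% to 16.7% in muscle libraries, and Sema6b 0.397% to 0.881% and 4.29% to 7.20%. The groups did not overlap for any of these 3 shares. They also did not overlap for the shares of Sema3e, higher in circulating libraries, and of Sema3f, Sema4c and Sema7a, lower there. The shares of the other semaphorins overlapped. Shares within a library depend on each other, so a larger share of Sema3c by itself lowers the rest. None of these shares was tested. The sum of all semaphorins per kilobase was 88.7 ± 3.61 CPM in the circulating and 73.3 ± 10.6 CPM in the muscle group (SD, n = 3 each). Class 3 without Sema3c summed to 11.6 ± 4.77 CPM in the circulating and 9.36 ± 3.01 CPM in the muscle group, a difference within the spread of the libraries.

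Among the receptors Nrp1, the co-receptor of class 3 semaphorins and of VEGF, was at 21.2, 31.5 and 86.2 CPM in circulating replicates 1, 2 and 3 and at 146, 110 and 131 CPM in muscle replicates 1, 2 and 3. Every circulating library lay below every muscle library, with circulating replicate 3 the closest. Nrp1 had a log2 fold change of -1.48 ± 0.58 (edgeR unadjusted p = 0.0276, adjusted p = 0.217; DESeq2 adjusted p = 0.0908), or -0.73 with scaling on abundant genes and -2.40 without circulating replicate 3. Endothelial cells are rich in Nrp1. Tek was the highest of the endothelial markers in every library, at 90.0, 44.5 and 44.2 CPM in circulating and 86.4, 34.5 and 49.4 CPM in muscle replicates 1, 2 and 3. Pecam1 was at 2.99, 6.92 and 9.33 CPM in circulating and 4.72, 14.98 and 20.7 CPM in muscle replicates 1, 2 and 3, and Tie1 was at 0 to 1.76 and 1.32 to 4.64 CPM, while Vwf was at 7.72 to 10.7 and 3.46 to 5.48 CPM. These genes thus did not all differ in one direction, and the part of endothelial cells in the Nrp1 values was not tested.

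Nrp2, the partner preferred by Sema3f, was at 21.9, 12.9 and 8.24 CPM in circulating and 16.2, 27.4 and 8.17 CPM in muscle replicates 1, 2 and 3, and the groups overlapped. The ratio of Nrp1 to Nrp2 reads per kilobase was 1.17, 2.96 and 12.7 in circulating and 10.8, 4.87 and 19.4 in muscle replicates 1, 2 and 3. Nrp1 was thus above Nrp2 in every library, and the ratios of the groups overlapped.

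Plxnd1, the receptor of Sema3e and one receptor of Sema3c and Sema4a, was at 2.70, 1.60 and 2.64 CPM in circulating replicates 1, 2 and 3 and at 7.83, 5.43 and 10.8 CPM in muscle replicates 1, 2 and 3. The groups did not overlap. Plxnd1 had a log2 fold change of -1.78 ± 0.60 (edgeR unadjusted p = 0.0131, adjusted p = 0.186), which passed in DESeq2 (adjusted p = 0.0213). The circulating libraries were at 0.463 to 0.885 times the background, from 37, 12 and 24 reads, and the muscle libraries at 2.85 to 6.97 times.

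Plxna1, the most abundant plexin in circulating FAPs per kilobase, was at 10.8, 39.9 and 66.0 CPM in circulating and 25.3, 15.4 and 31.3 CPM in muscle replicates 1, 2 and 3. Circulating libraries included both the lowest and the highest value, and its log2 fold change of 0.69 ± 0.72 (edgeR adjusted p = 0.588) was -0.028 without circulating replicate 3. Plxnb2, the receptor of Sema4c and the most abundant plexin in muscle FAPs per kilobase, was at 4.89, 23.8 and 18.01 CPM in circulating and 32.5, 23.5 and 30.8 CPM in muscle replicates 1, 2 and 3. Only circulating replicate 2 reached the muscle range. The log2 fold change of Plxnb2 was -0.90 ± 0.70 (edgeR adjusted p = 0.474).

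Plxna2, a receptor of class 6 semaphorins, reached 74.3 CPM in muscle replicate 3 and was at 9.62 and 20.7 CPM in muscle replicates 1 and 2 and 8.78 to 15.9 CPM in circulating libraries. Its log2 fold change of -1.56 became -0.40 without muscle replicate 3. Plxna3, a receptor of class 3 ligands, was at 1.39 to 9.55 CPM in circulating and 3.32 to 4.36 CPM in muscle libraries. Plxna4, a partner of neuropilins and receptor of Sema6a and Sema6b, was at 5.19 to 7.80 CPM in circulating and 5.68 to 5.94 CPM in muscle libraries, and Plxnc1, the receptor of Sema7a, at 4.13 to 8.67 and 4.36 to 4.98 CPM. Plxnb1, the receptor of Sema4d, was at 0.657 to 2.96 CPM in circulating and 2.03 to 2.44 CPM in muscle libraries. Plxnb3 had 60 reads in all and none in muscle replicate 1. Sema4b, Sema4f, Sema4g, Sema5b, Sema7a, Plxna4, Plxnb1 and Plxnb3 stood at no more than 2.10 times the background of silent genes in any library.

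**Figure D3:**
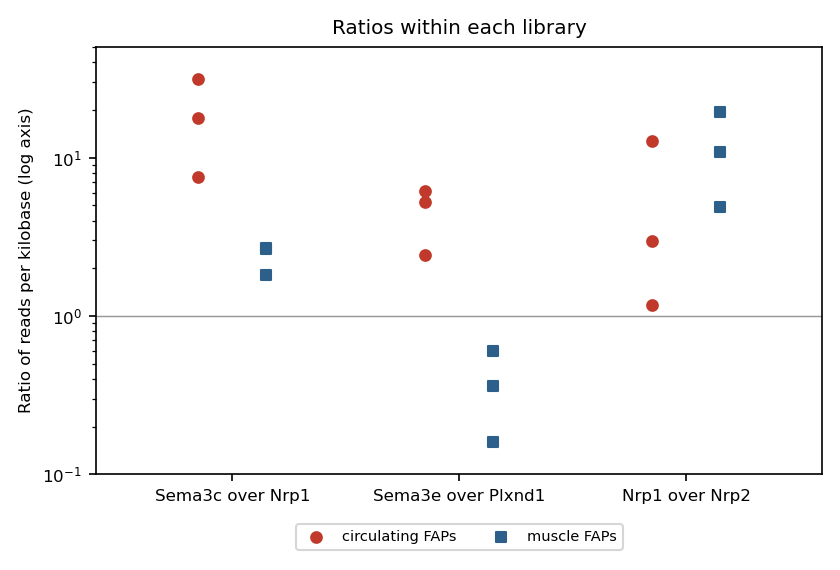
Ratio of reads per kilobase of exon within each library on a log axis, for Sema3c over Nrp1, Sema3e over Plxnd1 and Nrp1 over Nrp2, with circulating FAPs (red circles) left of muscle FAPs (blue squares) and a line at a ratio of 1. The groups are apart for both ligand to receptor ratios and overlap for the 2 neuropilins. For both ligand to receptor pairs this follows from the ligand being higher and the receptor lower without overlap. The 2 muscle points of the first ratio at 2.66 and 2.67 coincide.

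Ligand to receptor ratios within a library likewise need no scaling between libraries. These 2 pairs were chosen after their values were seen and are given without a test. In both pairs every circulating library lay above every muscle library for the ligand and below every one for the receptor. The ratios therefore had to separate the groups, and their separation is no further result. Sema3c exceeded Nrp1 per kilobase by 31.2, 17.8 and 7.59 times in circulating replicates 1, 2 and 3 and by 2.66, 1.82 and 2.67 times in muscle replicates 1, 2 and 3. Sema3e exceeded Plxnd1 by 6.18, 5.24 and 2.42 times in circulating libraries, while in muscle libraries the ratio was 0.6002, 0.360 and 0.161. The circulating Plxnd1 values behind this ratio lie under the background of silent genes.

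**Figure D4:**
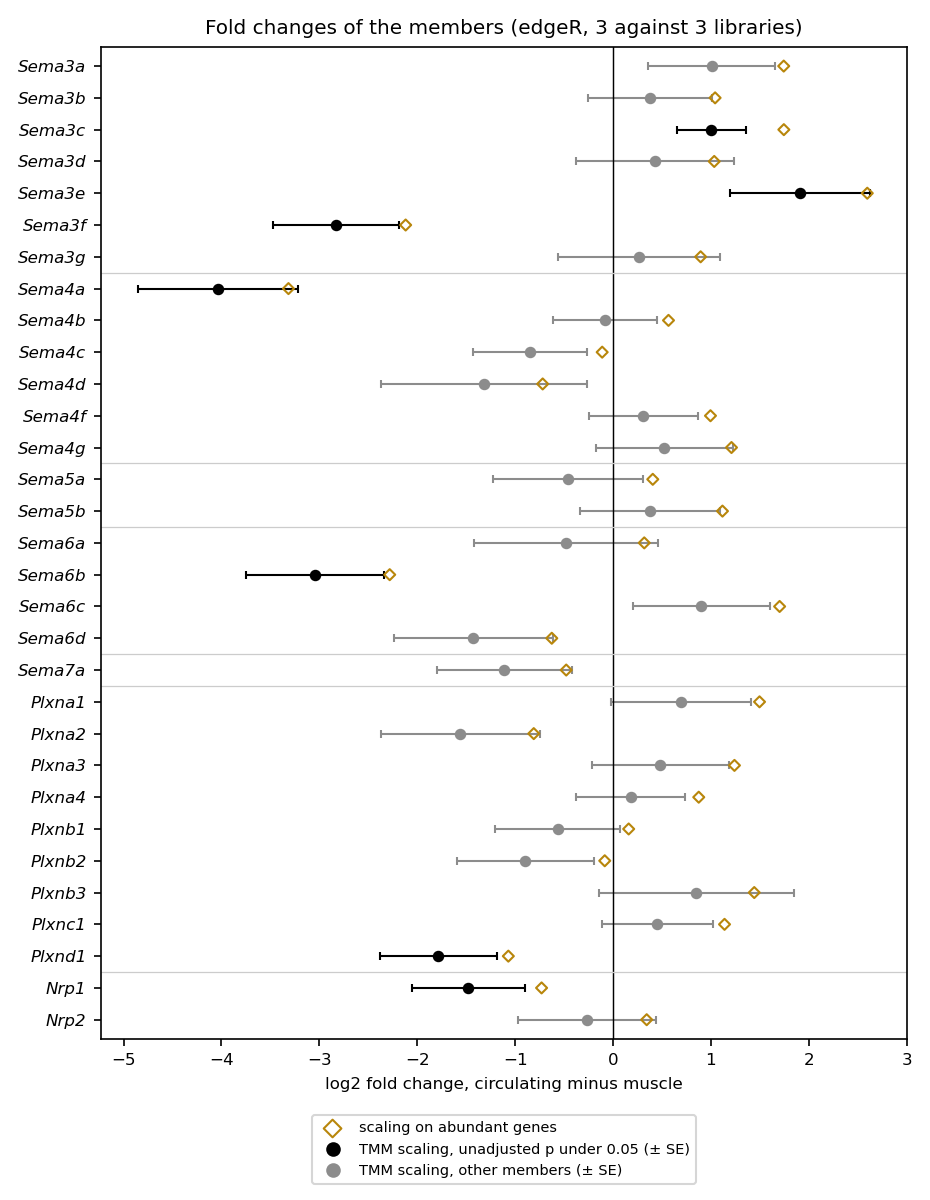
The log2 fold change (circulating minus muscle) of each member with its SE from edgeR with TMM scaling (circles; black for an unadjusted p under 0.05) and with scaling on abundant genes (open diamonds). Sema4a (-4.04), Sema6b (-3.05) and Sema3f (-2.83) lie farthest below 0 and stay below it with either scaling; Nrp2, Plxnb1, Sema4b, Sema5a and Sema6a cross 0 with scaling on abundant genes.

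Counted over the 31 members, 7 had an unadjusted p under 0.05 in edgeR (22.6%), where 19.4% of all tested genes did. The 5 lower members (Nrp1, Plxnd1, Sema3f, Sema4a and Sema6b) make 16.1%, against 9.64% of all genes, and the 2 higher (Sema3c and Sema3e) 6.45%, against 9.71%. In 6 members every circulating library lay below every muscle library, where 11.4% of all genes did so, and in 2 members above, where 16.2% did. Together these 8 are 25.8% of the members, against 27.7% of all genes. The shares over both directions together are thus near those of all genes. The split into lower and higher members rests on few genes and was not tested. Over all members tested, 16 had a log2 fold change below 0 and 15 above it. The 4 members called lower by DESeq2 were Sema4a, Sema6b, Sema3f and Plxnd1. Of the genes to which DESeq2 gave an adjusted p, 8.73% were called lower and 1.13% higher. For 5 members it gave no adjusted p. Leaving out 1 library at a time gave 4 to 8 members with an unadjusted p under 0.05, fewest without muscle replicate 3 and most without muscle replicate 1. Sema3f, Sema4a and Sema6b were among these whichever library was left out. Plxnd1 was not among them without circulating replicate 2, Sema3c without circulating replicate 3 or muscle replicate 2 or 3, and Sema3e without circulating replicate 1 or muscle replicate 2 or 3. Nrp1 was among them only without circulating replicate 3 or muscle replicate 2.

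**Figure D5:**
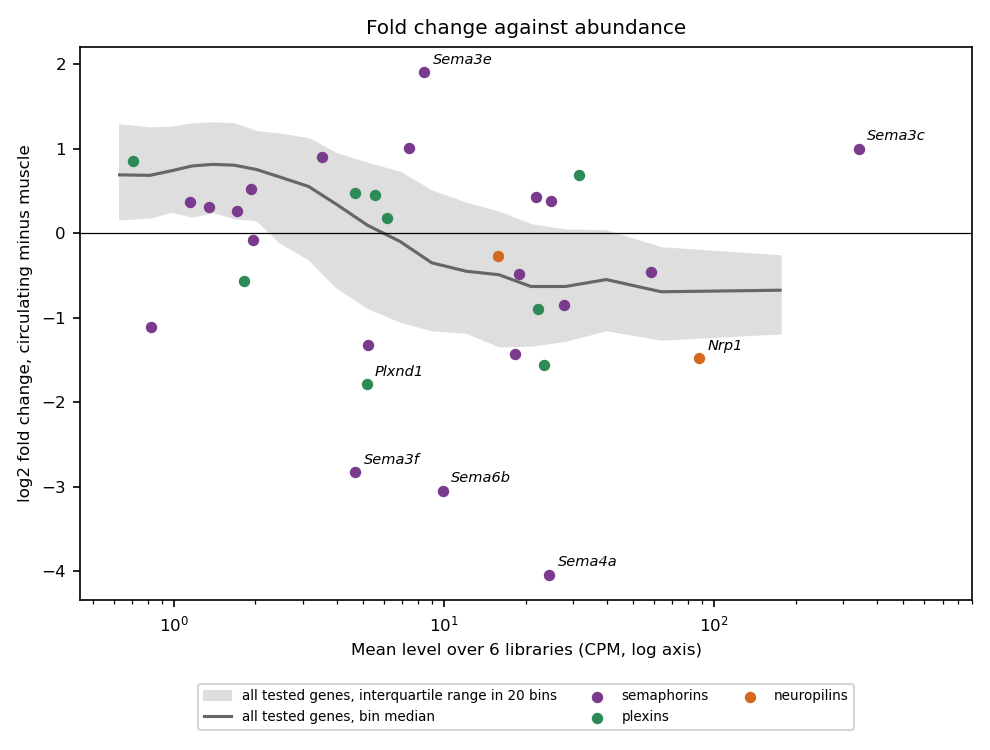
The log2 fold change (circulating minus muscle) of each member against its mean level over the 6 libraries in CPM on a log axis, over the median and interquartile range of all 20248 tested genes in 20 bins of abundance. Labels mark only members with an unadjusted p under 0.05. Of these, Sema3c and Sema3e lie above the interquartile range of genes of like abundance and Sema4a, Sema6b, Sema3f, Plxnd1 and Nrp1 below it. Unlabelled members, such as Plxna1 above and Sema7a and Plxnb1 below, also lie outside it. By definition many of all genes lie outside an interquartile range, so a place outside it does not set a member apart.

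Fold changes in these libraries went down with abundance over all genes, and the members were set beside genes of like level. Among genes of at least 20 CPM the median log2 fold change was -0.65 for the 10 members and -0.65 for all 4736 genes. Between 2 and 20 CPM it was -0.27 for 13 members and 0.07 for 8972 genes, and under 2 CPM it was 0.29 for 8 members and 0.77 for 6540 genes. Over all members it was -0.08 against 0.15 for all genes, and with scaling on abundant genes 0.57 against 0.85, a shift of 0.70 for all genes. With that scaling 3 members were lower (Sema3f, Sema4a and Sema6b) and 4 higher at an unadjusted p under 0.05, where 3.11% and 26.3% of all genes were.

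Of 17 co-receptors and other semaphorin receptors, 16 were tested and none passed in edgeR (1 lower and 1 higher at an unadjusted p under 0.05; 1 lower with DESeq2). For these and the lists that follow, the shares over all genes were 9.64% lower and 9.71% higher at an unadjusted p under 0.05. With DESeq2 the share lower was 8.73%, here and below over the genes it gave an adjusted p. Erbb2, a receptor kinase that can pair with B-type plexins, averaged 1.67 ± 0.686 CPM in the circulating group and 8.91 ± 1.77 CPM in the muscle group (-2.41 ± 0.62, edgeR adjusted p = 0.143). Trem2, a myeloid receptor that works with Plxna1 in dendritic cells and osteoclasts, was at 1.46, 14.1 and 1.87 CPM in circulating and 1.19, 1.07 and 0.489 CPM in muscle replicates 1, 2 and 3. Trem2 was high in circulating replicate 2 alone, the library with the highest sum of monocyte or macrophage markers, 136 CPM.

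The intracellular mediators of plexin signalling had 41 tested members of 42, none past the threshold in edgeR, 8 lower and 1 higher at an unadjusted p under 0.05 and 4 lower with DESeq2, where 9.64%, 9.71% and 8.73% of all genes were. Rnd2, a small GTPase of a group that binds plexins, was at 1.46, 2.13 and 3.95 CPM in circulating and 23.4, 28.53 and 19.2 CPM in muscle replicates 1, 2 and 3 (-3.24 ± 0.72, edgeR adjusted p = 0.121; DESeq2 adjusted p = 4.63e-06). Rock2, a kinase that acts on the contractile cytoskeleton, averaged 126 ± 39.7 CPM in the circulating group and 358 ± 23.0 CPM in the muscle group (-1.51 ± 0.37, edgeR adjusted p = 0.131). The median log2 fold change over these mediators was -0.43, and scaling on abundant genes put it at 0.24.

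Of 14 proteases that cleave semaphorins or their receptors, none passed in edgeR, 3 were lower at an unadjusted p under 0.05 (all genes 9.64%) and 2 were lower with DESeq2 (all genes 8.73%). Adamts1, a secreted metalloproteinase, averaged 244 ± 61.2 CPM in the circulating group and 826 ± 183 CPM in the muscle group (-1.76 ± 0.34, edgeR adjusted p = 0.0884). Adam9, a membrane-bound metalloproteinase, was at 21.6, 2.66 and 13.7 CPM in circulating and 82.0, 113 and 111 CPM in muscle replicates 1, 2 and 3 (-3.00 ± 0.73, edgeR adjusted p = 0.131). None of the 8 VEGF ligands and receptors passed or had an unadjusted p under 0.05 in edgeR, and none was called by DESeq2. Pgf, the placental growth factor and the most abundant of them, was at 74.9 ± 44.3 CPM in the circulating and 49.4 ± 1.97 CPM in the muscle group.

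The other guidance families had no member past the threshold in edgeR either. For the 10 slits and robos, with their GTPase-activating partners, there was none at an unadjusted p under 0.05 and none with DESeq2, and Slit3 was at 63.1 ± 12.1 CPM in the circulating and 74.1 ± 25.6 CPM in the muscle group. Among 15 tested netrins and receptors, 4 were lower at an unadjusted p under 0.05 (all genes 9.64%) and 3 with DESeq2 (all genes 8.73%). Unc5a and Unc5b, netrin receptors that mediate repulsion, were at 0.454 ± 0.197 and 2.20 ± 0.697 CPM in circulating FAPs, against 3.21 ± 0.819 and 10.3 ± 4.63 CPM in muscle FAPs. The circulating values rest on 6, 2 and 6 reads for Unc5a and 28, 12 and 27 for Unc5b in replicates 1, 2 and 3. Among 20 tested ephrins and Eph receptors, 3 were lower (all genes 9.64%) and 1 higher (all genes 9.71%) at an unadjusted p under 0.05, and 2 were lower with DESeq2 (all genes 8.73%). Ephb2, a receptor kinase for B-type ephrins, was at 2.77, 1.33 and 2.63 CPM in circulating and 14.6, 15.8 and 15.4 CPM in muscle replicates 1, 2 and 3 (-2.75 ± 0.65, edgeR adjusted p = 0.129). Efna2, an ephrin held by a lipid anchor, was at 1.43 ± 0.998 CPM in the circulating and 8.24 ± 5.62 CPM in the muscle group. In circulating replicates 1, 2 and 3 Ephb2 had 38, 10 and 24 reads and Efna2 35, 8 and 6.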

How the data were processed

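RNA-seq libraries of 3 circulating and 3 muscle FAP samples were grouped by their titles. Per the labels, cells were lysed in RLT plus buffer and libraries made with a TruePrep kit. The authors deposited raw counts of reads per gene symbol. The submitters' processing notes name featureCounts, STAR, Trim Galore and build GRCm39; versions, strand setting and annotation were not given in the sources used here. In GENCODE M21, opposite-strand genes not in the table cover 10.7% of Plxna1 and 7.27% of Sema4c exon bases, so reads there cannot be assigned with certainty.

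The counts were tested with edgeR 4.0.16 in R 4.3.3 (robust quasi-likelihood F test, TMM scaling, filterByExpr, Benjamini-Hochberg adjustment over 20248 genes, threshold 0.05). SEs are the absolute log2 fold change over the root of F. CPM refer to TMM-scaled library sizes. Exon lengths (union of exons, GENCODE M21, GRCm38) were matched by symbol for 91.5% of symbols and for all 31 members. The background is the median reads per kilobase over 561 receptor genes taken as silent. Promoter windows came from RefSeq, GRCm38.p6, for 26 members. DESeq2 1.42.0 was an alternative, beside RLE factors, scaling on genes of at least 20 CPM, no filter, a replicate block and leaving out each library. The edgeR steps were also run on simulated counts with known fold changes in genes of at least 20 CPM. That run does not cover members of lower level, and its outcome is not given here.

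Full values are given for members with an unadjusted p under 0.05, for groups without overlap where the higher mean is at least 5 CPM, and for the 3 most abundant ligands and receptors; from each other list, up to 2 members with the smallest p, or else the most abundant. The members, lists and rules were chosen with earlier results of these data known. Replicates differed far beyond sampling noise, with a chi-square per degree of freedom of 56.1 to 85.4. The B cell marker list is not reported here.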

Additional observations from a re-analysis of the deposited data

How the results depend on the processing

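Of 22 genes past the threshold in edgeR, the count was 43 with RLE size factors, 7 with scaling on abundant genes, 160 without the filter on low counts, 1505 with DESeq2, 1 with the replicate block and 0 (without muscle replicate 3) to 65 (without circulating replicate 1) when single libraries were left out. The count of members was 0 in edgeR, 1 without the filter (Sema4a) and 4 with DESeq2; it stayed at 0 with RLE factors, scaling on abundant genes, the replicate block and each library left out. With DESeq2 the lists had 1 co-receptor, 4 mediators, 2 proteases, 3 netrin genes and 2 ephrin genes past the threshold, and without the filter 1 protease (Adamts1). Members at an unadjusted p under 0.05 numbered 4 to 8 when single libraries were left out, against 7 with all. The median log2 fold change of the members, -0.08, was 0.57 with scaling on abundant genes and -0.28 to 0.18 over the libraries left out.

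Directions turned with scaling on abundant genes for Nrp2 (0.34), Plxnb1 (0.16), Sema4b (0.57), Sema5a (0.41) and Sema6a (0.32), without the filter for Plxna4 (-0.042) and with the replicate block for Sema3d (-0.15). Leaving out single libraries turned the sign of members whose fold changes ranged as follows: Nrp2 -0.77 to 0.18, Plxna1 -0.028 to 1.07, Plxna3 -0.30 to 0.88, Plxna4 -0.079 to 0.235, Sema3b -0.0015 to 0.72, Sema3d -1.03 to 0.75, Sema3g -0.28 to 1.71, Sema4b -0.36 to 0.21, Sema4d -1.89 to 1.204, Sema4f -0.032 to 0.46, Sema4g -0.21 to 1.07, Sema5b -0.78 to 0.68 and Sema6a -2.10 to 0.16. The cause was not tested. Sema4a stayed between -4.55 and -3.63, Sema6b between -3.52 and -2.87 and Sema3f between -3.18 and -2.38. Equal replicate numbers are not said to mark 1 mouse, so the replicate block may join unrelated libraries. Deviations of same-numbered libraries correlated at 0.0081, 0.041 and 0.0058. With replicates that differed far beyond sampling noise, these values cannot show whether same-numbered libraries share a mouse. Counts of 8 to 38 reads limit the circulating values of Sema3f, Sema4a and Sema6b.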
